A study of Mus musculus with 9 samples.

Results

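The 2 mature products of the mouse miR-21a hairpin, mmu-miR-21a-5p and mmu-miR-21a-3p, were followed in mouse liver during thioacetamide (TAA) injury and after its withdrawal. They were chosen by name and were 2 of the 1140 rows in the table of small RNA counts, which held 1106 known and 34 predicted miRNAs. Both had counts in all 9 samples and both passed the filter on low counts in every comparison. The livers came from male C57BL/6 mice that were 8 weeks old at the start, with no transgene or other genetic change named in the labels or methods. Control mice (n = 3) received intraperitoneal saline for 8 weeks. TAA mice (n = 3) received intraperitoneal TAA, a hepatotoxic compound used to induce fibrosis, over the same 8 weeks. Recovery mice (n = 3) had the TAA course as well, followed by 8 weeks without any injection. They were therefore older at death, so that recovery and elapsed time cannot be told apart, and each sample was a different mouse.

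A miRNA hairpin is cut by Dicer into a duplex, of which 1 strand (the guide) is usually loaded into an Argonaute protein and kept, while the other strand (the passenger) is mostly degraded. For miR-21 the guide is the 5p arm, one of the most abundant miRNAs of many adult tissues, and it represses targets such as PDCD4 and is widely described as raised in injury, inflammation and fibrosis. The level of the passenger arm 3p can differ from that of 5p, because the arms are loaded and degraded separately after they have been cut from the same precursor.

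The mature sequences are shown because the 2 arms share a precursor but not a seed (bases 2 to 8, in capitals), which is the part of a miRNA that pairs with targets. They were taken from the RefSeq table of build GRCm38, as were those of mmu-miR-21b and mmu-miR-21c, which are shown as the relatives whose reads could be taken for miR-21a-5p.
mmu-miR-21a-5p: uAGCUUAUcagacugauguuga
mmu-miR-21a-3p: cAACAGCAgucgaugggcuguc
mmu-miR-21b: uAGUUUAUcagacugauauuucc
mmu-miR-21c: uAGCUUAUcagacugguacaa
The 5p seed occurred in 2 mature miRNAs of the RefSeq table, miR-21a-5p and miR-21c, and the 3p seed occurred only in miR-21a-3p among the 1679 names of that table. Bases were counted from 1 at the 5′ end and compared without gaps over the shared length. On that count miR-21b differed from miR-21a-5p by C4U, G18A, G21U and A22C, and miR-21c by A16G, G18A, U19C, U20A and G21A. The 3′ ends differed as well, since miR-21a-5p has 22 bases, miR-21b 23 and miR-21c 21. Values of miR-21b and miR-21c were not analysed here, and how reads that match several miRNAs were counted was not given in the sources used here.

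In GRCm38 the 5p arm lay at chr11:86584120-86584141 and the 3p arm at chr11:86584082-86584103, both on the minus strand. The Mir21a hairpin (chr11:86584067-86584158, 92 bases) lay inside exon 12 of a transcript of Vmp1 (GENCODE M21), in the part annotated as its 3′ UTR (chr11:86583865-86585310, minus strand). Vmp1 encodes a membrane protein of autophagy. Small RNA counts cannot show whether a miRNA was cut from the Vmp1 transcript or from a primary transcript of its own.

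The libraries held between 9071847 and 12983378 miRNA counts. The factors of the trimmed mean of M-values (TMM), which scale libraries on the assumption that most miRNAs do not change, lay between 0.738 and 0.792 in control samples, between 1.43 and 1.63 in TAA samples and between 0.766 and 0.887 in recovery samples. Those factors were fitted to all 9 samples. Fitted to the 6 samples of a comparison, the mean log2 factor of the groups differed by 1.12 (TAA vs control) and -0.87 (recovery vs TAA). Against scaling by the library total, log2 fold changes of the former were lower and those of the latter higher by about these amounts, with some variation between miRNAs. A miRNA that changed at least 2-fold with a false discovery rate (FDR) under 0.05, here in edgeR's quasi-likelihood test, was called differentially expressed (DEM). In TAA vs control, 105 DEMs were higher and 70 lower under TMM, while 241 were higher and 4 lower under library totals. Values are given on both scales because the direction of miR-21a-5p depended on this choice.

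mmu-miR-21a-5p took a much larger share of the liver miRNA counts in TAA mice. The control samples, in the order of their replicate numbers as everywhere here, held 2297089, 2269647 and 2196027 counts of it, the TAA samples 3963013, 3437566 and 2958078, and the recovery samples 2222059, 2768256 and 2775878. As shares of all miRNA counts these were 17.7%, 22.1% and 22.1% in control samples, 35.0%, 37.9% and 32.3% in TAA samples, and 18.2%, 22.6% and 22.3% in recovery samples. All 3 TAA samples were above all others, as was so in TAA vs control for 73.3% of the tested miRNAs, and 63.6% were lower without overlap in recovery vs TAA. The control and recovery samples overlapped. It was the most abundant miRNA in 7 of the 9 samples and ranked 3 in control replicate 1 and recovery replicate 1.

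The mean share was 20.6% ± 2.54 (SD, n = 3) in the control group, 35.1% ± 2.81 (n = 3) in the TAA group and 21.01% ± 2.44 (n = 3) in the recovery group. The share was 1.70 times as high in TAA as in control mice, a difference of 14.4 percentage points. Over the 3 groups the share differed in an exact permutation test of the between-group sum of squares (p = 0.0179, Benjamini-Hochberg adjusted p = 0.0357 over 5 measures, 1680 assignments). Between pairs of groups the exact two-sided permutation test gave p = 0.1 when TAA mice were set against either other group, which is the lower limit for 3 samples against 3, and p = 0.5 for recovery vs control. The 95% Wilson intervals of single shares reached at most 0.0316 points to either side, against an SD between samples of 2.44 to 2.81 points. With 1 library per mouse, differences between mice and between library preparations cannot be told apart. Intervals of this kind cover counting error only, since reads without molecular identifiers are not independent molecules.

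**Figure D1:**
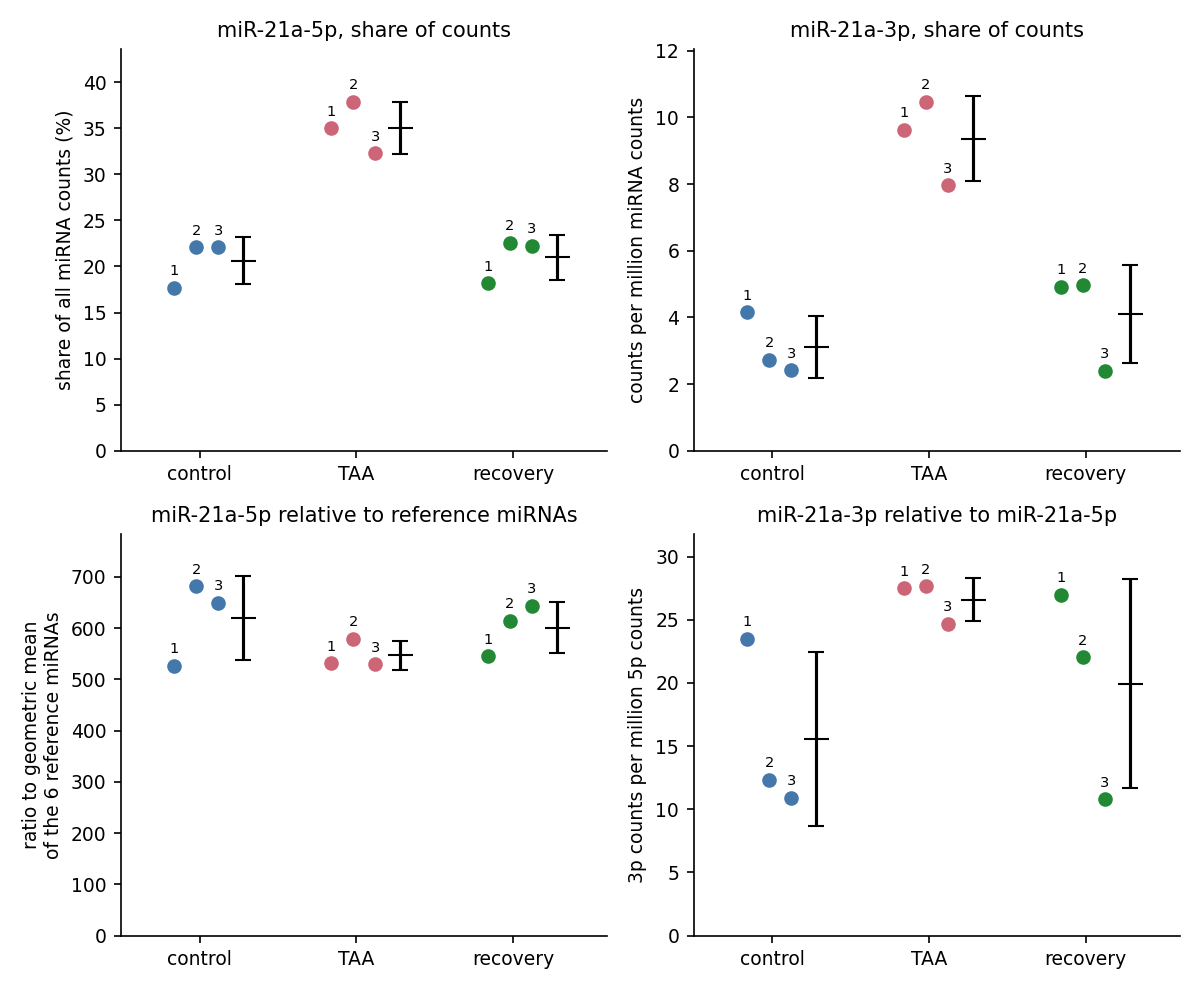
Each panel plots the 9 samples by group (points, numbered by replicate) with the group mean ± SD (n = 3, black). The share of miR-21a-5p in percent of all counts and that of miR-21a-3p in counts per 1000000 were higher in the 3 TAA samples than in all others, whereas miR-21a-5p relative to the geometric mean of 6 reference miRNAs overlapped between the groups, and 3p counts per 1000000 counts of 5p lay between 24.7 and 27.6 in the TAA samples.

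A share depends on the rest of the library, and the next most abundant miRNA moved the other way. mmu-miR-122-5p, the hepatocyte miRNA that makes up much of the liver's miRNA pool, held 20.3% ± 1.05 (n = 3) of the counts in control, 11.3% ± 0.675 (n = 3) in TAA and 19.7% ± 3.85 (n = 3) in recovery mice. The near-identical row mmu-miR-122b-3p held about the same counts again, and the 2 rows cannot be told apart. Reads may have been counted in both rows, which would lower every share of the total, and without miR-122b-3p the mean share of miR-21a-5p was 25.9% in control, 39.5% in TAA and 26.1% in recovery mice. For each count of miR-122-5p there were 0.821, 1.12 and 1.12 counts of miR-21a-5p in control samples, 3.29, 3.31 and 2.69 in TAA samples, and 0.754, 1.33 and 1.24 in recovery samples. This ratio does not depend on any scaling. All 3 TAA values were above all others, and the log2 ratio differed over the 3 groups (exact permutation test, p = 0.0214, adjusted p = 0.0357).

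Against each of the other 19 of the 20 most abundant miRNAs, the mean log2 ratio of miR-21a-5p in TAA vs control was higher for 16 and lower for 3, with a median difference of 0.56 and no test. The samples of the 2 groups did not overlap for 12 of the 16 and 1 of the 3. Without the near-identical miR-122b-3p, 15 of 18 were higher (11 without overlap) and 3 lower (1 without overlap), with a median of 0.50. How often such ratios lack overlap over all miRNAs was not computed. The 4 highest differences, leaving out miR-122b-3p, were 1.61 against miR-122-5p, 1.48 against miR-101b-3p, 1.30 against miR-148a-3p and 1.23 against miR-192-5p. The log2 ratio differed by 0.20 against miR-126a-3p, an endothelial miRNA, and by -0.26 against miR-143-3p, a miRNA of smooth muscle and myofibroblasts, with overlapping groups in both cases. Against let-7i-5p it differed by -1.25 without overlap, so that let-7i-5p gained on miR-21a-5p in TAA mice. After recovery, compared with TAA, the ratio was lower against 16 of the 19 (15 without overlap) and higher against 3 (1 without overlap, let-7i-5p, 1.08). Without miR-122b-3p it was lower against 15 of 18 (14 without overlap) and higher against 3 (1 without overlap). In recovery vs control it was higher against 10 of the 19 and lower against 9, with 1 without overlap.

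**Figure D2:**
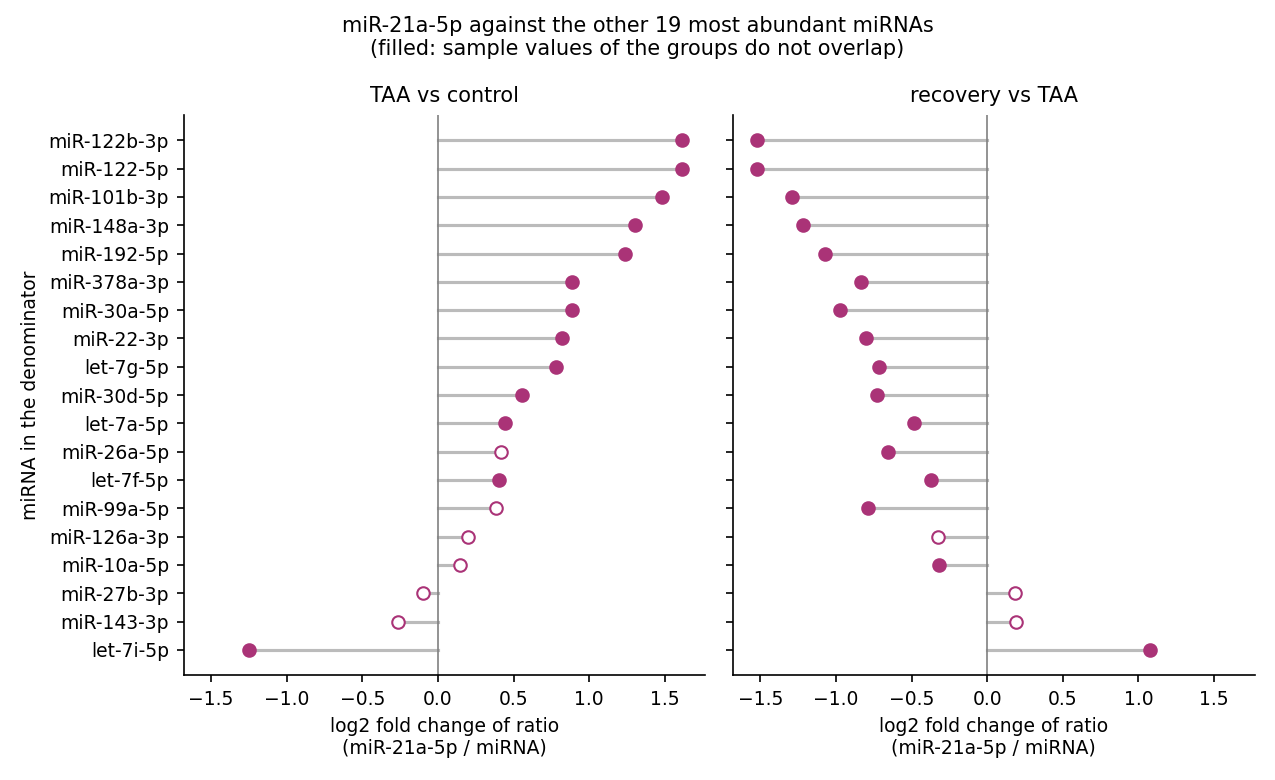
The horizontal axis gives the log2 fold change of the ratio of miR-21a-5p to each of the other 19 most abundant miRNAs (rows), from the means of 3 samples per group; filled points mark ratios whose samples do not overlap between the groups. In TAA vs control 16 of 19 ratios were above 0, led by miR-122-5p at 1.61, and in recovery vs TAA 16 of 19 were below 0.

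Compared with less abundant miRNAs, miR-21a-5p did not stand high. By mean counts per 1000000 over the 9 samples, in bands chosen after the data were seen, its log2 fold change in TAA vs control under TMM exceeded that of 23 of the 33 other tested miRNAs with at least 1000. It exceeded 26 of 67 miRNAs between 100 and 1000, 36 of 131 between 10 and 100, and 48 of 188 below 10. The median log2 fold change under TMM was -0.76 in the most abundant band (without miR-21a-5p), -0.17 and 0.27 in the next 2 bands, and 0.40 in the least abundant band. Most tested miRNAs were in the lower bands, and over all 420 tested miRNAs 133 had a lower log2 fold change than miR-21a-5p. Under library totals this number was 134, and over the other 7 scalings of the libraries tried in edgeR it lay between 132 and 136.

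The sign of the change in miR-21a-5p therefore depended on where 0 was set. Under TMM fitted to all 9 samples, its level in counts per 1000000 counts (CPM) was 223372, 299451 and 292310 in control samples. It was 244420, 232043 and 198623 in TAA samples and 237513, 254272 and 254298 in recovery samples, with overlapping groups. An edgeR fit of all 9 samples gave a log2 fold change of -0.27 (SE 0.12, FDR 0.0821) for TAA vs control. With TMM fitted to the 6 samples of this comparison, as in the other edgeR values here, it gave -0.36 (SE 0.12, FDR 0.0359). In that fit 58.3% of the tested miRNAs had an FDR below 0.05 and 26.4% were lower with such an FDR. Under library totals the same test gave 0.77 (SE 0.11, FDR 0.000501), where 71.9% of the tested miRNAs were higher with an FDR below 0.05. Relative to the median of all tested miRNAs, which was 0.11 under TMM and 1.23 under library totals, the log2 fold change was -0.47 and -0.46, respectively. On neither scale was miR-21a-5p a DEM, a call that 41.7% of the tested miRNAs had under TMM. It passed both thresholds only where its own counts were left out of the library totals (1.06, SE 0.13, FDR 0.000218, 293 DEMs in all).

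The lower value under TMM was near the threshold. Leaving out control replicate 2 (log2 fold change -0.28, FDR 0.120), control replicate 3 (-0.32, FDR 0.109), TAA replicate 1 (-0.37, FDR 0.0618) or TAA replicate 3 (-0.26, FDR 0.130) moved it past 0.05, and leaving out control replicate 1 gave -0.47 (FDR 0.00691). Scaling by 6 miRNAs often used as references (miR-16-5p, miR-25-3p, miR-93-5p, miR-103-3p, miR-191-5p and miR-423-5p) gave -0.18 (SE 0.10, FDR 0.179). As a plain ratio to the geometric mean of these 6, miR-21a-5p was 526, 681 and 650 in control samples, 532, 579 and 529 in TAA samples, and 545, 614 and 643 in recovery samples. The groups overlapped, and the 3 groups did not differ in the exact permutation test (p = 0.325). Of the references themselves, miR-16-5p (-0.56, FDR 0.00621) and miR-103-3p (-0.40, FDR 0.0381) fell under TMM in edgeR, as did 26.4% of all tested miRNAs. Under library totals all 6 rose with an FDR below 0.05, as did 71.9% of all tested miRNAs.

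**Figure D3:**
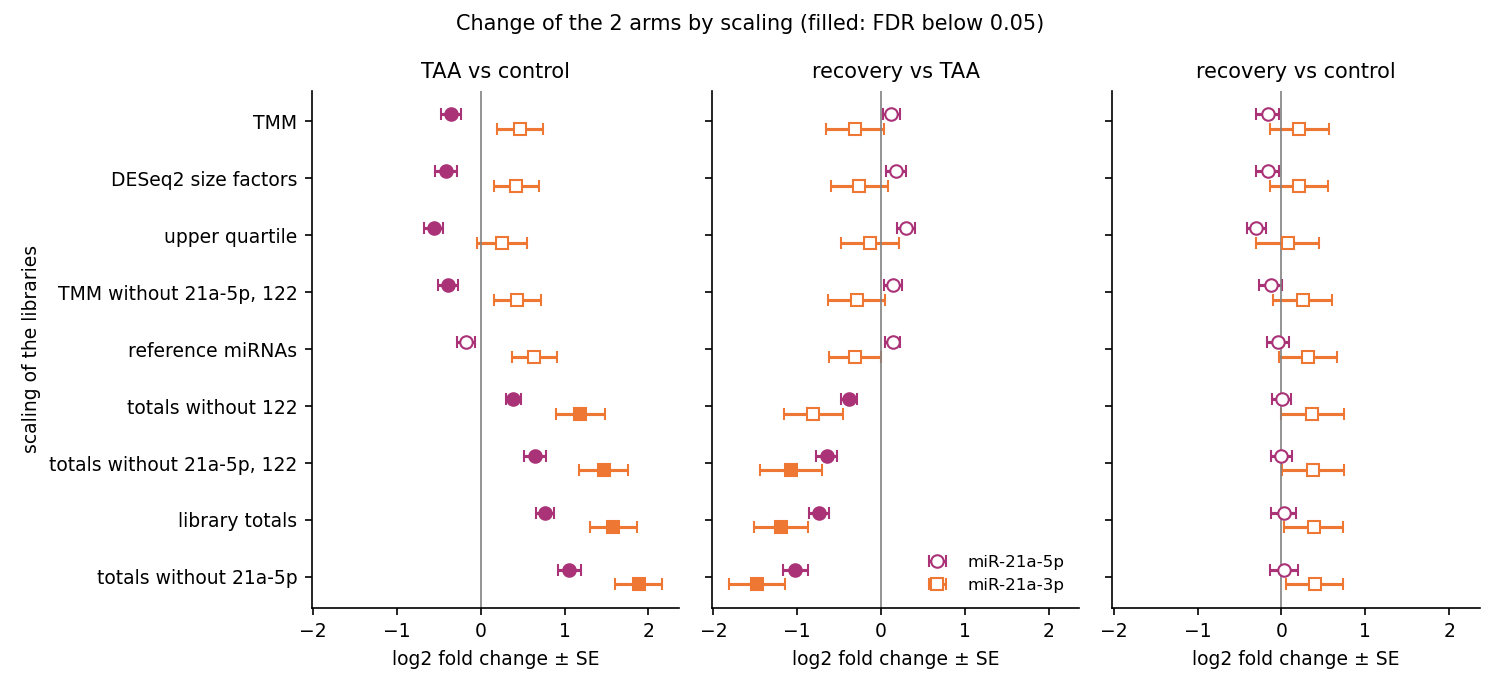
The log2 fold change ± SE of miR-21a-5p (circles) and miR-21a-3p (squares) is plotted for 9 scalings of the libraries in edgeR, with filled symbols for an FDR below 0.05. In TAA vs control miR-21a-5p ranged from -0.56 with upper-quartile factors to 1.06 with library totals that leave out miR-21a-5p itself, while miR-21a-3p was above 0 under each of the 9 scalings.

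**Figure D4:**
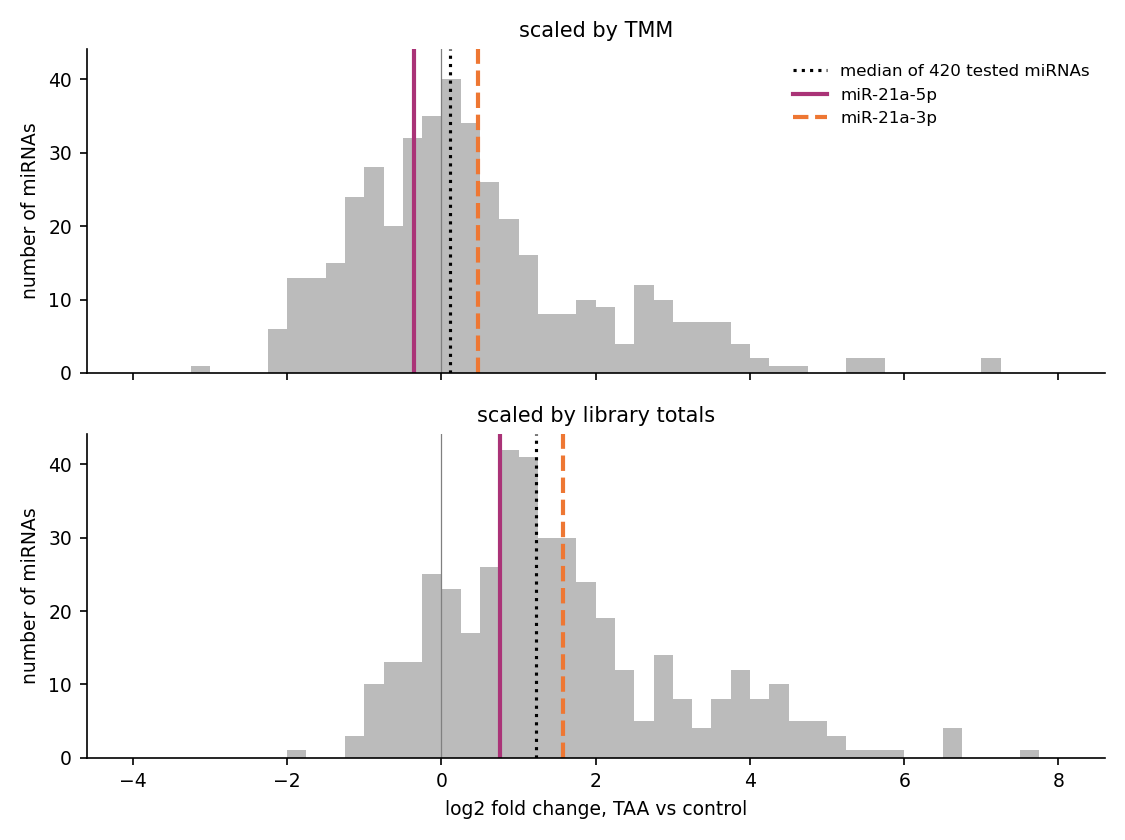
The histograms show the log2 fold changes of the 420 tested miRNAs in TAA vs control under TMM (top) and library totals (bottom). Vertical lines mark the median of all, miR-21a-5p and miR-21a-3p, and the order of the 3 lines was the same on both scales although the histogram moved to the right under library totals.

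After TAA withdrawal the share of miR-21a-5p was at the level of the control mice. Between recovery and TAA mice edgeR gave 0.12 (SE 0.10, FDR 0.373) under TMM, where 39.1% of the 440 tested miRNAs had an FDR below 0.05. Under library totals it gave -0.74 (SE 0.12, FDR 0.00161), where 60% were lower with such an FDR. In recovery vs control it gave -0.16 (SE 0.13, FDR 0.581) under TMM and 0.03 (SE 0.15, FDR 0.945) under library totals, and 14.1% of the 391 tested miRNAs had an FDR below 0.05 under TMM and 16.1% under library totals. The share differed by 0.384 percentage points between recovery and control mice, less than the SD of either group.

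mmu-miR-21a-3p, the passenger arm, was counted 54, 28 and 24 times in control samples, 109, 95 and 73 times in TAA samples and 60, 61 and 30 times in recovery samples. It ranked between 251 and 320 in a sample, where between 631 and 828 of the 1140 rows had any count. Per 1000000 miRNA counts (the deposited TPM) this was 4.16, 2.73 and 2.41 in control samples, 9.63, 10.5 and 7.96 in TAA samples, and 4.91, 4.97 and 2.41 in recovery samples. All TAA samples were again above all others. On this scale 73.3% of the tested miRNAs were higher without overlap in TAA vs control, and 63.6% were lower without overlap in recovery vs TAA. The lowest TAA sample had a 95% Wilson interval from 6.33 to 10.01 TPM and the highest control sample one from 3.19 to 5.43.

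The mean of miR-21a-3p was 3.10 ± 0.931 TPM (SD, n = 3) in control, 9.35 ± 1.28 (n = 3) in TAA and 4.10 ± 1.46 (n = 3) in recovery mice. The mean in TAA mice was 3.02 times that in control mice, and the 3 groups differed (exact permutation test, p = 0.0143, adjusted p = 0.0357). With library totals edgeR gave a log2 fold change of 1.58 (SE 0.28, FDR 0.00164) in TAA vs control and -1.19 (SE 0.32, FDR 0.0132) in recovery vs TAA. On that scale miR-21a-3p was a DEM in both comparisons, and so were 57.4% of the tested miRNAs in the same direction in the former and 46.1% in the latter. Under TMM the values were 0.47 (SE 0.28, FDR 0.182) and -0.31 (SE 0.34, FDR 0.504), neither past the threshold. Under TMM 255 of the 420 tested miRNAs had a lower log2 fold change than miR-21a-3p in TAA vs control, which placed it above the median of all, where miR-21a-5p lay below.

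Under TMM, where the difference did not pass the test, the value of miR-21a-3p in recovery vs TAA rested on recovery replicate 3, with 30 counts, and without it the log2 fold change was 0.016 (FDR 0.970). In TPM the recovery mean without this replicate was 4.94, still below the 9.35 of the TAA mice. In recovery vs control the log2 fold change was 0.22 (SE 0.35, FDR 0.818) under TMM and 0.39 (SE 0.35, FDR 0.588) under library totals. Neither passed the test.

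The ratio of the 2 arms is free of scaling. For each count of miR-21a-3p there were 42539, 81059 and 91501 counts of miR-21a-5p in control samples, 36358, 36185 and 40522 in TAA samples, and 37034, 45381 and 92529 in recovery samples. Expressed the other way, there were 23.5, 12.3 and 10.9 counts of 3p per 1000000 counts of 5p in control samples, 27.5, 27.6 and 24.7 in TAA samples, and 27.0, 22.0 and 10.8 in recovery samples. The TAA samples lay close together and above every control sample, while recovery replicates 1 and 2 were near the TAA samples and recovery replicate 3 was near control replicates 2 and 3. The means were 15.6 ± 6.89 (n = 3) in control, 26.6 ± 1.67 (n = 3) in TAA and 19.9 ± 8.30 (n = 3) in recovery mice.

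Over 110 hairpins with both arms counted, limma gave a log2 fold change of the 5p to 3p ratio of miR-21a of -0.84 (SE 0.32, unadjusted p = 0.0249, FDR 0.229) in TAA vs control, where 7.27% of the pairs had an FDR below 0.05. The groups did not overlap for miR-21a, nor for 21.8% of the pairs. Only 4 pairs had a lower value. Control replicate 1, with the most 3p counts of its group, decided this call, since without it the change was -1.17 (FDR 0.0278). The change was 0.51 (SE 0.34, FDR 0.407) in recovery vs TAA, or 0.12 without recovery replicate 3, and -0.33 (SE 0.43, FDR 0.994) in recovery vs control, where 3.64% and 0% of the pairs had an FDR below 0.05. The 3 groups did not differ in the exact permutation test of the log2 ratio (p = 0.175).

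miR-21a was the most lopsided of the 110 pairs, with 46606 counts of 5p per count of 3p over all 9 libraries. miR-122b followed with 5516 and miR-99a with 4100, and the median of the pairs was 10.1 counts of the major arm per count of the minor arm. Pairs whose arm ratio passed the test in TAA vs control were 8 in number and did not include miR-21a. Among them were miR-221 (-1.04, SE 0.17, FDR 0.00492) and miR-200a (0.66, SE 0.17, FDR 0.0460). miR-122 (-0.79, SE 0.11, FDR 0.00311), miR-122b, miR-203 and miR-203b also passed, but reads of such overlapping hairpins may be split between their names or counted under both, so that their values are uncertain.

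**Figure D5:**
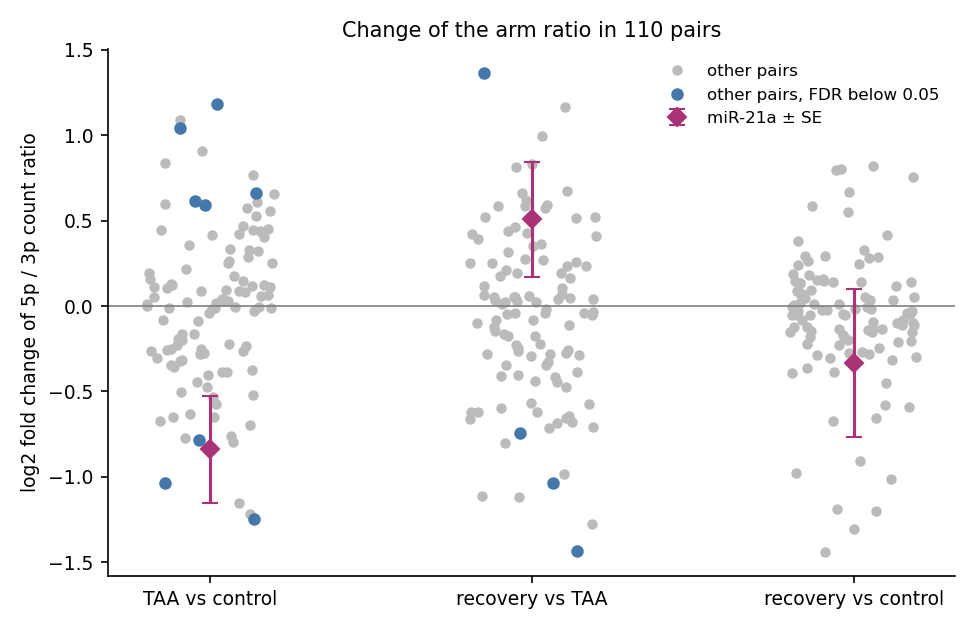
Each point is 1 of 110 hairpins and the vertical axis is the log2 fold change of its 5p to 3p count ratio in limma, with points spread sideways at random for each comparison. miR-21a (diamond ± SE) lay at -0.84 in TAA vs control with only 4 pairs below it, and pairs with an FDR below 0.05 (blue) numbered 8, 4 and 0 in the 3 comparisons.

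The miRNAs with a pattern most like that of each arm were found by Pearson's r of log2(CPM + 1) over the 9 samples, among miRNAs with a mean of at least 10 CPM. Under TMM the nearest to miR-21a-5p were miR-361-3p (r = 0.90), miR-140-3p (0.82), miR-221-5p (0.80), miR-1839-5p (0.78) and miR-676-5p (0.77), of 225 candidates. Those nearest to miR-21a-3p were miR-542-3p (0.85), miR-221-3p (0.75), miR-351-5p (0.73), miR-31-5p (0.70) and miR-191-5p (0.62), of 226. These lists had no member in common, and between the arms r was -0.53 under TMM and 0.77 under library totals. The nearest to miR-21a-5p were all different under library totals: miR-28a-3p (0.98), miR-350-3p (0.98), miR-1981-5p (0.98), miR-342-3p (0.97) and miR-148b-3p (0.97). For miR-21a-3p, miR-542-3p (0.96) was again first on that scale, with miR-191-5p and miR-221-3p (both 0.93) also among the 5 nearest. The 9 points share the scaling factors of their libraries and fall into 3 groups, and 3p counts are low, so that these values are descriptions only.

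Of 8 other miRNAs known to respond to tissue damage and inflammation, 6 had a larger log2 fold change than either arm in TAA vs control under TMM. In all, 7 of the 8 rose with an FDR below 0.05 in TAA vs control under TMM, as did 31.9% of all tested miRNAs, and 5 of these were DEMs, with a median log2 fold change of 1.73 against 0.11 for all tested miRNAs. miR-34a-5p, a target of p53, went from 15.5 ± 3.30 CPM (n = 3) to 104.6 ± 8.87 (n = 3) and was 18.6 ± 2.01 (n = 3) after recovery. Its log2 fold change was 2.66 (SE 0.19, FDR 0.000104). miR-146b-5p, a feedback regulator of NF-κB signalling, rose by 1.80 (SE 0.20, FDR 0.000341) and miR-155-5p, a miRNA of activated immune cells, by 1.65 (SE 0.23, FDR 0.00102). miR-132-3p and miR-212-3p, which come from a shared CREB-driven locus, rose by 1.95 and 2.58. The latter value (SE 0.70, FDR 0.0165) came from very low levels, 0.153 ± 0.137 CPM (n = 3) in control and 1.06 ± 0.397 (n = 3) in TAA mice. miR-221-3p (0.43, FDR 0.0384) and miR-222-3p (0.73, FDR 0.0464) rose less, and miR-146a-5p did not pass the test (-0.17, FDR 0.452). Under library totals all 8 rose with an FDR below 0.05, as did 71.9% of all tested miRNAs. miR-146a-5p rose by 0.95 on that scale, below the median of 1.23 for all tested miRNAs. After TAA withdrawal 4 of the 8 fell against the TAA group under TMM, as did 20.7% of all tested miRNAs, with a median of -1.10 against -0.12 for all tested.

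Markers of several liver cell types differed between TAA and control mice, some of them higher and some lower. In whole liver, fewer cells of a type cannot be told apart from less of a miRNA per cell. All 4 hepatocyte miRNAs (miR-122-5p, miR-122-3p, miR-192-5p and miR-194-5p) fell in TAA vs control under TMM, as did 26.4% of all tested miRNAs, with a median log2 fold change of -1.50. Their summed level went from 362070 to 377132 CPM in control samples to between 107513 and 114004 in TAA samples and between 273292 and 401964 in recovery samples. Under library totals 2 of the 4 fell, as did 5.24% of all tested miRNAs. Of 5 leukocyte miRNAs 4 rose under TMM (median 0.74), where 31.9% of all tested miRNAs rose, and the sum was 196 to 224 CPM in control, 286 to 330 in TAA and 156 to 234 in recovery samples. Of 5 stellate cell and myofibroblast miRNAs 3 rose, against the same 31.9% (miR-199a-3p, miR-199a-5p and miR-214-3p, each by at least 1.44), while the sum, which miR-143-3p dominates, overlapped between the groups (25482 to 31112 CPM in control, 18034 to 39509 in TAA and 21871 to 35804 in recovery samples).

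All 5 biliary epithelial miRNAs of the miR-200 family rose under TMM (median 2.24), where 31.9% of all tested miRNAs rose, and their sum was 582 to 764 CPM in control, 3332 to 5535 in TAA and 1240 to 1415 in recovery samples. Both endothelial arms of miR-126a fell under TMM, where 26.4% of all tested miRNAs fell (median -0.68, sum 8478 to 8952, 5700 to 6896 and 8348 to 9123 CPM) and rose under library totals, as did 71.9% of all tested miRNAs. Of 3 red cell miRNAs 2 fell under TMM, against the same 26.4% (median -1.01, sum 789 to 1339, 206 to 461 and 329 to 622 CPM), and under library totals their median was 0.10. No member of these marker lists was at 0 in all samples of a group. The part of cell composition in the values of the miR-21a arms was not tested.

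Both the Mir21a hairpin and the miR-21a-5p strand contain the letters CAGAC, the core of the element that SMAD proteins bind when TGF-β signalling promotes the processing of a subset of primary miRNAs. These letters, read on the strand of the RNA, occurred in 80 of 1005 RefSeq mouse hairpins (7.96%). Without the miR-21a arms, 60 listed miRNAs came from such hairpins and 21 were tested in TAA vs control. Of these, 12 rose and 2 fell as DEMs under TMM (median 1.26), where 25% of all tested miRNAs rose and 16.7% fell as DEMs. Of 22 tested between recovery and TAA mice, 3 rose and 9 fell as DEMs (median -0.93), where 10.2% and 14.5% of all tested miRNAs did so. Under library totals 15 of the 21 rose as DEMs in TAA vs control, where 57.4% of all tested miRNAs did so. On that scale 15 of the 22 fell as DEMs in recovery vs TAA, where 46.1% of all tested miRNAs did so. The match is to letters only, several of these miRNAs share hairpin families, and neither arm of miR-21a was a DEM under TMM. Under library totals miR-21a-3p was a DEM in both comparisons and miR-21a-5p in neither.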

How the data were processed

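Small RNA libraries of 9 livers were prepared with a ligation-based NEBNext kit and sequenced as single-end reads. The authors mapped reads with Bowtie (version 1.3.0 in the submitters' processing notes) to mm10 and miRBase. They deposited a raw count and a TPM value for each mature miRNA and sample, and the deposited TPM equalled counts per 1000000 miRNA counts within 5e-05. All 1140 rows were used and 0 columns with values per sample were left unused. Samples were grouped by their labels, 3 per group.

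Counts were tested with edgeR 4.0.16 (R 4.3.3, filterByExpr with a minimum count of 10, TMM, glmQLFTest, Benjamini-Hochberg over all tested miRNAs) in the 6 samples of each comparison. Arm ratios, log2((5p + 0.5)/(3p + 0.5)), were tested with limma 3.58.1 over 110 hairpins whose arms both had a mean of at least 10 counts. Single values were compared by exact permutation tests. DESeq2 1.42.0, limma on log2(TPM + 1), other scalings and filters, and the removal of each replicate were alternatives. The edgeR test was tried on simulated counts with as many rises as falls, and the arm test on simulated rises of 5p. The former cannot show how TMM acts when most changes go in 1 direction. TMM levels printed per sample were scaled over the 9 samples. The named miRNAs were the 2 arms, the 20 most abundant miRNAs, the 5 nearest in pattern to each arm and marker lists. The members and lists were chosen with earlier results of these data known.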

Additional observations from a re-analysis of the deposited data

How the results depend on the processing

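For miR-21a-5p the scaling set the sign. In TAA vs control its log2 fold change turned from -0.36 to 0.77 with library totals, 0.39 with totals without the miR-122 rows, 1.06 with totals without miR-21a-5p, 0.65 with totals without both and 0.77 with limma on log2(TPM + 1), which is also scaled by the total. It stayed below 0 but lost its FDR below 0.05 with the reference miRNAs (-0.18), a mean of at least 10 CPM (-0.16) and a fit of all 9 samples (-0.27). It kept its sign and an FDR below 0.05 with DESeq2 (-0.41, FDR 0.0420), DESeq2 size factors in edgeR (-0.41, FDR 0.0302) and upper-quartile factors (-0.56, FDR 0.00383). The same held for TMM without miR-21a-5p and the miR-122 rows (-0.39, FDR 0.0265) and without a filter (-0.36, FDR 3.11e-05). In recovery vs TAA it turned from 0.12 to -0.74, -0.38, -1.02, -0.65 and -0.74 under the 5 settings that turned its sign in TAA vs control. With the filter at 10 CPM it turned to -0.038. In recovery vs control it turned from -0.16 to 0.027 with library totals, 0.0018 without the miR-122 rows, 0.033 without miR-21a-5p and 0.027 in limma. For miR-21a-3p the direction held under each of the 13 settings other than leaving out a replicate. It passed an FDR of 0.05 in TAA vs control with library totals (1.58), totals without the miR-122 rows (1.19), without miR-21a-5p (1.88), without both (1.47) and limma (1.35), and in recovery vs TAA with totals (-1.19), without miR-21a-5p (-1.48), without both (-1.07) and limma (-1.06). The filter at 10 CPM removed miR-21a-3p, and adding miR-21b and miR-21c to miR-21a-5p was not run. Leaving out 1 replicate at a time moved miR-21a-5p between -0.47 and -0.26, 0.07 and 0.23, and -0.29 and -0.11 in the order of comparisons above, and miR-21a-3p between 0.31 and 0.72, -0.47 and 0.016, and 0.0039 and 0.49. The arm ratio moved between -1.17 and -0.63, 0.12 and 0.77, and -0.72 and -0.07, and the other settings kept its sign and its side of the threshold. The 175, 109 and 44 DEMs of the 3 comparisons became 85, 60 and 13 with the filter at 10 CPM, which tests fewer miRNAs, and 293 and 264 in the first 2 comparisons with totals without miR-21a-5p. In recovery vs TAA they became 207 with library totals and 191 with totals without miR-21a-5p and the miR-122 rows. Leaving out 1 replicate gave 158 to 187, 93 to 132 and 37 to 46 DEMs. Group means of the share of miR-21a-5p in control, TAA and recovery mice were 34.7%, 45.3% and 34.7% of totals without the miR-122 rows, 25.9%, 39.5% and 26.1% without miR-122b-3p, and 26.1%, 54.2% and 26.7% of all other counts. Those of miR-21a-3p were 5.27, 12.1 and 6.93 TPM without the miR-122 rows. Leaving out 1 replicate moved the mean shares between 19.9% and 22.1%, 33.6% and 36.5%, and 20.2% and 22.4%, and the 3p means between 2.57 and 3.44, 8.80 and 10.1, and 3.66 and 4.94 TPM. Samples of different groups with the same replicate number were different mice, and correlations of their deviations from the group means lay between -0.24 and 0.24. The labels name no batch, and correlations from 3 samples per group cannot show whether one was shared. With the replicate number as a block, miR-21a-5p changed by -0.35 (FDR 0.0158) in TAA vs control and the DEMs numbered 178, 106 and 44, with no call of either arm or of their ratio changed. Causes of these differences were not tested. miR-21a-3p had 24 to 109 counts in a sample, so that counting error adds to the spread of its values and of the arm ratio.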
